A study of Mus musculus with 12 samples.

Results

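The genes described here are 37 lysosome and proton pump genes, chosen by name and not by their values, of 31053 genes in the matrices. They comprise 16 genes of the vacuolar ATPase (V-ATPase), namely 6 subunits of its membrane part V0, 8 of its cytosolic part V1 and 2 accessory proteins, together with 6 membrane proteins, 8 hydrolases, 4 lipid or protein cofactors and 3 channel or transcriptional regulators. All 37 were found among the row names of both matrices. Cells came from breast tumors of PyMT mice, in which the middle T antigen of polyoma virus, driven by the MMTV promoter in mammary epithelium, gives rise to spontaneous cancers. The groups were PyMT mice with wild-type PAR2 (PAR2 WT) or with PAR2 G37I, a mutant receptor that is resistant to signaling by coagulation factor Xa. From each genotype 3 samples were selected with CD11c beads, from late-stage tumors, and 3 with CD4 and CD8 beads, from tumors of intermediate size. All groups carried the PyMT oncogene, and all cells had been frozen and thawed before droplet capture on the 10x Genomics platform. Because the beads set which cells were seen, the shares of cells below are not shares of a tumor.

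The lysosome is an acidic organelle in which hydrolases break down proteins, lipids and glycans that a cell has taken up. The V-ATPase pumps protons across its membrane, with V1 splitting ATP and V0 carrying the protons, and membrane proteins such as Lamp1 and Lamp2 line it. Transcription factors of the MiT family, among them Tfeb and Mitf, bind the CLEAR element, whose core is TCACGTGA, in promoters of many lysosomal genes. Macrophages, which ingest dying cells and lipid, are rich in lysosomes.

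To show what these promoters share beyond the names of the genes, their windows were searched for the CLEAR core. RefSeq windows of 300 bases on GRCm38.p6, from 250 bases before to 50 after the start site, were at hand for 30 of the 37 genes. The letters TCACGTGA, which read the same on both strands, were found in 4 of these 30 (13.3%) and in 1.12% of all 27025 genes with a window. The shorter TCACGTG, searched on both strands and contained in the first motif, was found in 9 of 30 (30%) and in 4.29% of all genes. Its core CACGTG was in the same 9 members and in 8.09% of all genes. The members were chosen by function, so these shares describe them and are no test. Atp6v0d2, Atp6v1b2, Atp6v1c1, Atp6v1g1, Atp6v1h, Npc1 and Asah1 had no window. For the 9 genes with a match, capitals show the first full core on the strand of the gene or, where there was none, the first TCACGTG. Up to 30 bases are given on each side, and the 4 full cores come first. The stretches of Atp6v0b and Mcoln1 hold a further TCACGTG, and that of Lamp1 a further one on the other strand, all left in lower case.
Atp6v0d1 (chr8:105566031-105566098, minus strand): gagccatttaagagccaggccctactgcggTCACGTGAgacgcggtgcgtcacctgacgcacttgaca
Atp6v0e (chr17:26676368-26676435, plus strand): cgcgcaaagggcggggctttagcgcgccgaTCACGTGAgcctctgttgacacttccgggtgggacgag
Atp6v1a (chr16:44139354-44139421, minus strand): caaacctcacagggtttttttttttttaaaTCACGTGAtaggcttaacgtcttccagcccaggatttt
Mcoln1 (chr8:3500443-3500510, plus strand): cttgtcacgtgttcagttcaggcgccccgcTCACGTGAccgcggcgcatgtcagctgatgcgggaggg
Atp6v0b (chr4:117887330-117887396, minus strand): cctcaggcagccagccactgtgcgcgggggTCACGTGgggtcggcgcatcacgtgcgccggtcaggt
Lamp1 (chr8:13159069-13159135, plus strand): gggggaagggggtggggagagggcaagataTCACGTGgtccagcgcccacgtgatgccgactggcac
Lgmn (chr12:102439106-102439172, minus strand): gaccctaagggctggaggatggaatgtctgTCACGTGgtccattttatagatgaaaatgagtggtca
Gaa (chr11:119267792-119267858, plus strand): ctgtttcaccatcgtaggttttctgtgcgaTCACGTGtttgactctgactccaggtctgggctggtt
Glb1 (chr9:114400999-114401065, plus strand): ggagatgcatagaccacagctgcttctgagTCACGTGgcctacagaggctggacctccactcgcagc

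The match in capitals began 4 bases before the start site in Atp6v0d1, 46 before it in Mcoln1 and 132 before it in Atp6v1a, and after it in Atp6v0e. Of the 9 genes, 4 encode V-ATPase subunits (Atp6v0b, Atp6v0d1, Atp6v0e and Atp6v1a) and 3 encode hydrolases (Lgmn, Gaa and Glb1). Lamp1 and Mcoln1, which encodes a calcium channel of the lysosomal membrane, complete them.

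The CD11c-selected matrix held 11639 cells with at least 200 detected genes, and the CD4/CD8-selected matrix held 22806, at medians of 7943 and 4361 unique molecular identifiers (UMIs, counted molecules) per cell. Each matrix pools 6 samples and names no sample for a cell, so each is 1 sample here. No genotypes were compared, no test was possible and no value has a replicate error. Barcodes run through the alphabet 6 times in each matrix. These 6 barcode runs were tied to no sample or genotype and held 13314063 to 24231244 UMIs in the CD11c-selected and 16203038 to 30168668 in the CD4/CD8-selected matrix. Values are given for runs with at least 20 cells of a gate. Barcodes occurring more than once numbered 76 and 51, and 92 barcodes were in both matrices. Levels are UMIs per 1000000 UMIs of a gate (CPM), with 95% confidence intervals (CI) that are exact and cover counting error only. They depend on transcript length and capture, so levels are compared between gates and not between genes.

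Gates were set on raw UMIs. Macrophages (C1q genes of at least 10 UMIs) made up 6834 CD11c-selected cells. Of these, 284 were in the Gpnmb/Spp1 gate, 46 in the Lyve1/Cd209f gate, 654 in the Thbs1/Vegfa gate and 909 in the Il10 gate, each with at least 2 UMIs of every gate gene. Another 411 macrophages met more than 1 of these definitions and were left out of all 4, among them 219 that met both the Gpnmb/Spp1 and the Thbs1/Vegfa definition. Cells with fewer C1q UMIs fell into the other gates, with 872 dendritic cells (DCs), 121 neutrophils, 71 T cells and 310 tumor cells. DCs were gated on Xcr1 or Clec9a (cDC1), Cd209a with Flt3 (cDC2) or Ccr7 with Fscn1 (migratory DCs), neutrophils on S100a8 and S100a9 with Csf3r or Cxcr2, T cells on Cd3 genes and tumor cells on Epcam, Krt8 and Krt18. Markers not used for gating were highest in the gate of their name for 5 of 5 macrophage, 5 of 5 neutrophil, 5 of 5 tumor, 4 of 5 T cell and 4 of 5 DC genes. The depth of the macrophage gates differed, with a median of 19062 UMIs per cell in the Gpnmb/Spp1 gate against 8805 in the Il10 and 11341 in the Thbs1/Vegfa gate. Among cells of 5000 to 20000 UMIs only, the sum of the members in the Gpnmb/Spp1 gate was 1.44 times that of the other 3 gates, against 1.43 over all cells, and the Atp6v0d2 ratio described below was 26.1 against 29.2. The CD4/CD8-selected matrix held 940 macrophages, 18913 T cells and 281 tumor cells.

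**Figure D1:**
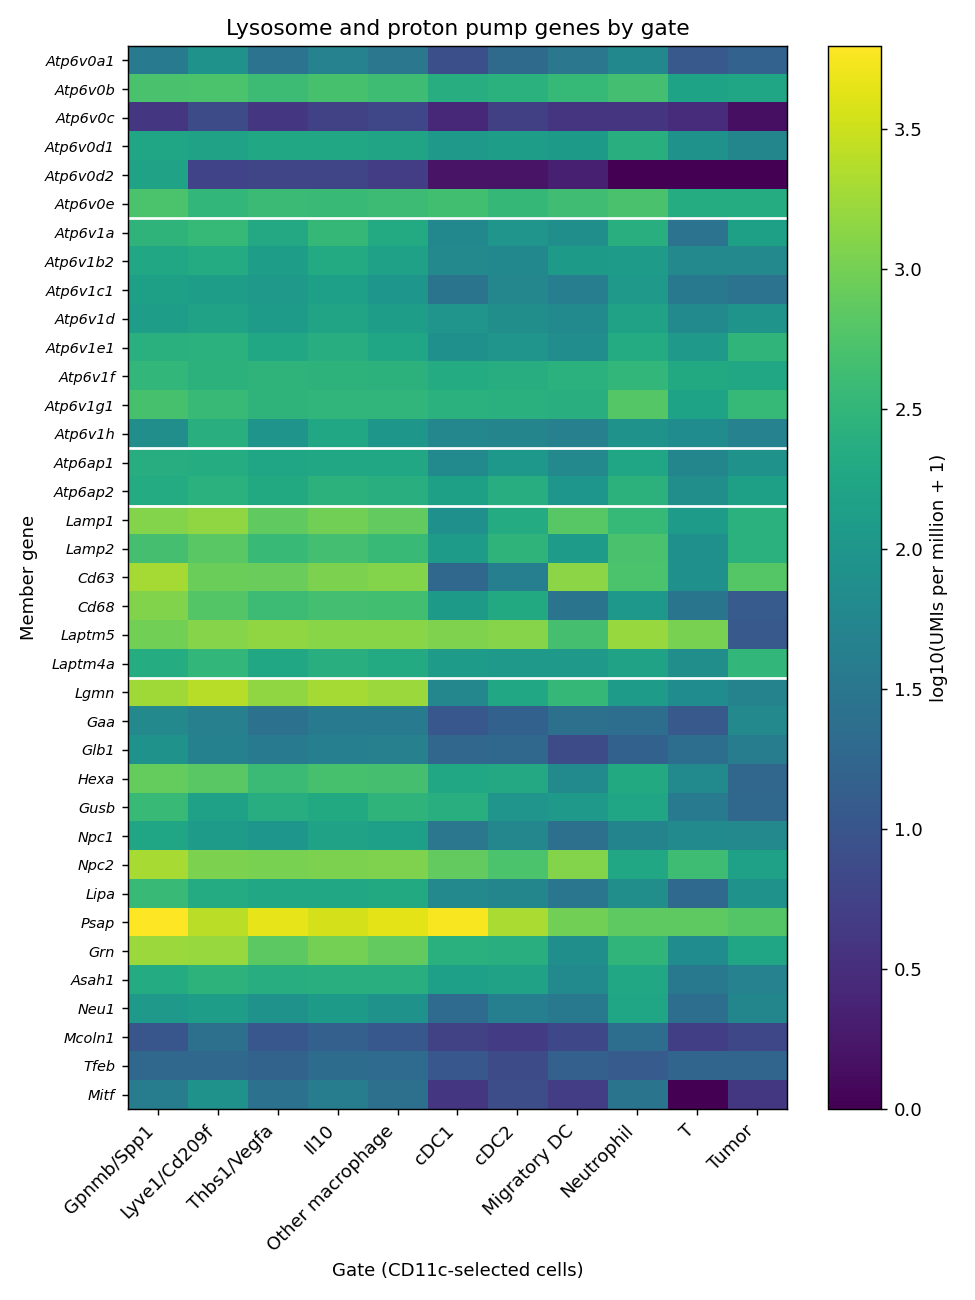
Level of each of the 37 genes (rows) in 11 gates of CD11c-selected cells (columns), as log10 of UMIs per 1000000 plus 1, with white lines between V0, V1, accessory, membrane and other genes. Atp6v0d2 stands at 153.7 CPM in the Gpnmb/Spp1 gate and at 5.3 CPM or less in every other gate shown.

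Which macrophages carried the most lysosomal RNA was examined first. The 37 genes together took 23661 CPM (95% CI, 23541 to 23782) in the Gpnmb/Spp1 gate, 18345 (18008 to 18686) in the Lyve1/Cd209f gate, 17087 (17004 to 17169) in the Il10 gate and 15946 (15865 to 16027) in the Thbs1/Vegfa gate. Over the runs with enough cells, the sum ranged from 22984 to 25705 CPM in 4 runs of the Gpnmb/Spp1 gate, from 15851 to 18606 in 6 runs of the Il10 gate and from 14089 to 17155 in 6 runs of the Thbs1/Vegfa gate. The runs of the Gpnmb/Spp1 gate lay above all runs of both other gates. The 16 V-ATPase genes differed less, with 3728 CPM in the Gpnmb/Spp1, 3612 in the Lyve1/Cd209f, 3411 in the Il10 and 2782 in the Thbs1/Vegfa gate.

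Counted gene by gene, few members differed by 2-fold. Against the other 3 macrophage gates summed, 4 of 37 members were at least 2-fold higher in the Gpnmb/Spp1 gate, where 7.87% of all genes tested were, and 0 were at least 2-fold lower, where 10.4% of all genes were. The share of members higher by 2-fold was thus near that of all genes. The ratios of 27 members were above 1 and of 10 below, with a median of 1.13 against 1.01 over all genes. The 4 members were Atp6v0d2, Cd68, Lipa and Glb1. At a lower fold they were followed by Cd63, Gaa, Grn, Npc2 and Hexa, with ratios from 1.80 to 1.97. Within runs, the Gpnmb/Spp1 gate was higher than the Thbs1/Vegfa gate in each of 4 runs for 25 of 37 members and 17.3% of all genes. It was higher than the Il10 gate in each of 4 runs for 18 of 37 members and 20.1% of all genes. The 2 comparisons share the cells of the Gpnmb/Spp1 gate. The shares over all genes were not matched to the members by level, and whether level plays a part in the contrast was not tested.

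Atp6v0d2 stood out among the members. It encodes an alternative d subunit of V0, known for its high level in osteoclasts, and lies on chromosome 4 (GRCm38, 19876841 to 19922605, minus strand, GENCODE M21). In the 4 runs of the Gpnmb/Spp1 gate its level was 210.2, 91.8, 180.6 and 116.2 CPM. In the 6 runs of the Thbs1/Vegfa gate it was between 0 and 13.2 CPM, in those of the Il10 gate between 3.67 and 7.23, and in other macrophages between 1.70 and 7.10. No run of the Gpnmb/Spp1 gate overlapped any run of these gates. Over all cells the level was 153.7 CPM (963 UMIs) against 5.27 in the other 3 gates summed, a ratio of 29.2 (95% CI, 23.8 to 36.1). Its paralog Atp6v0d1, which encodes the widely expressed d subunit, was at 166.9 CPM in the Gpnmb/Spp1 gate and between 152.5 and 183.2 in the other 3, a ratio of 0.92 (0.86 to 0.99).

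**Figure D2:**
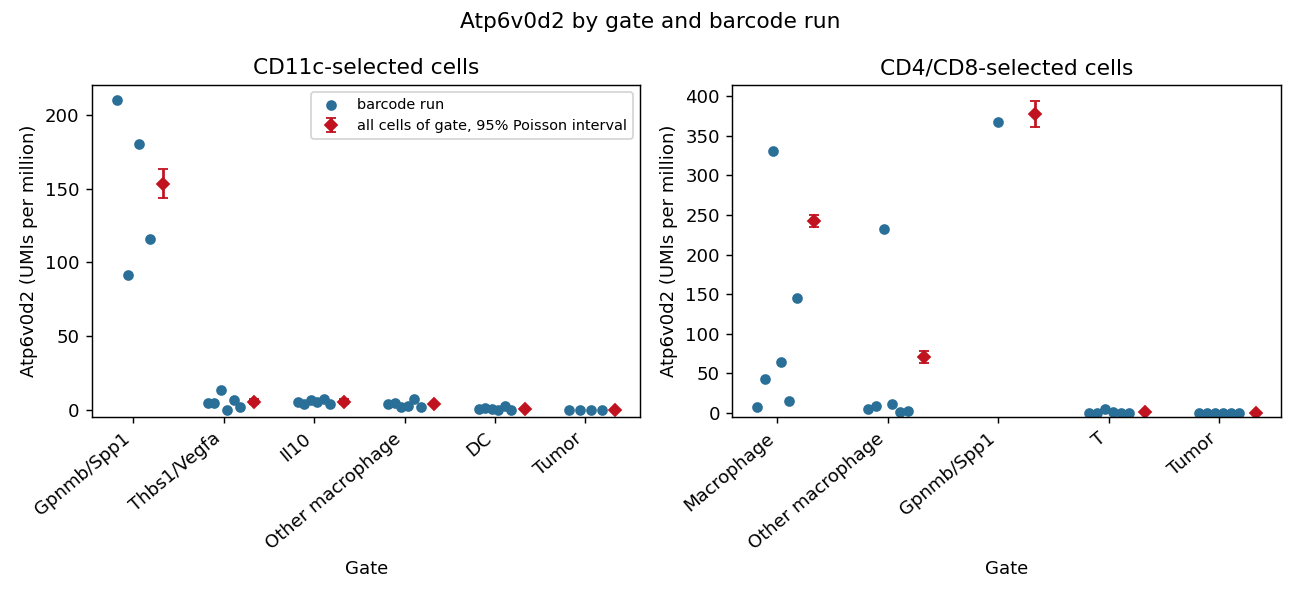
Atp6v0d2 in UMIs per 1000000 (y) by gate (x) in CD11c-selected cells (left) and CD4/CD8-selected cells (right). Circles are barcode runs with at least 20 cells, diamonds all cells of the gate with the 95% Poisson interval. On the left the runs of the Gpnmb/Spp1 gate lie between 91.8 and 210.2 and all others at 13.2 or below. On the right 1 run of macrophages stands at 330.3.

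The size of the Atp6v0d2 ratio depended on how cells of several gates were treated. With the 411 cells kept in each gate whose definition they met, the ratio was 4.55, still above 1. Cells that met the Gpnmb/Spp1 and another definition were then counted on both sides of this ratio. Among cells with at least 3000 UMIs thinned to that number, 27.4% of 263 Gpnmb/Spp1 cells had an Atp6v0d2 UMI (95% CI, 22.1% to 33.2%), 1.10% of 637 Thbs1/Vegfa cells (0.44% to 2.25%), 1.31% of 842 Il10 cells (0.65% to 2.33%) and 0 of 45 Lyve1/Cd209f cells, for which the exact interval reaches 7.87%. Without thinning the shares were 52.5%, 3.67%, 4.29% and 6.52%. In T cells of the CD4/CD8-selected matrix, which should lack the gene, 0.23% of 15239 thinned cells had a UMI.

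The other V-ATPase genes had ratios between 0.52 and 1.58 in the Gpnmb/Spp1 gate, with Atp6v1h the lowest. Atp6v1h, a regulatory subunit that holds V1 to V0, was at 73.1 CPM in the Gpnmb/Spp1, 90.3 in the Thbs1/Vegfa, 182.5 in the Il10 and 241.7 in the Lyve1/Cd209f gate. In the Gpnmb/Spp1 gate it was between 55.6 and 84.0 CPM over 4 runs, below all 6 runs of the Il10 gate (144.7 to 251.6). The ratio to the other 3 gates was 0.52 (0.47 to 0.57). Atp6v1g1 (1.58) and Atp6v0e (1.42) had the next highest ratios of this complex after Atp6v0d2. For the accessory protein Atp6ap1, the Gpnmb/Spp1 gate was above the Il10 gate in 4 of 4 runs. For the accessory protein Atp6ap2 and the V1 subunit Atp6v1d it was so in 0 of 4. Against the Thbs1/Vegfa gate it was above in 4 of 4 runs for Atp6ap1 and Atp6ap2 and in 2 of 4 for Atp6v1d. The level of Atp6v0c, the proteolipid of the proton-carrying ring, was 3.0 to 6.5 CPM in the 4 gates and is uncertain. GENCODE M21 holds 2 processed pseudogenes of it, Atp6v0c-ps1 on chromosome 7 and Atp6v0c-ps2 on chromosome 6, to which reads of the same sequence could also map.

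**Figure D3:**
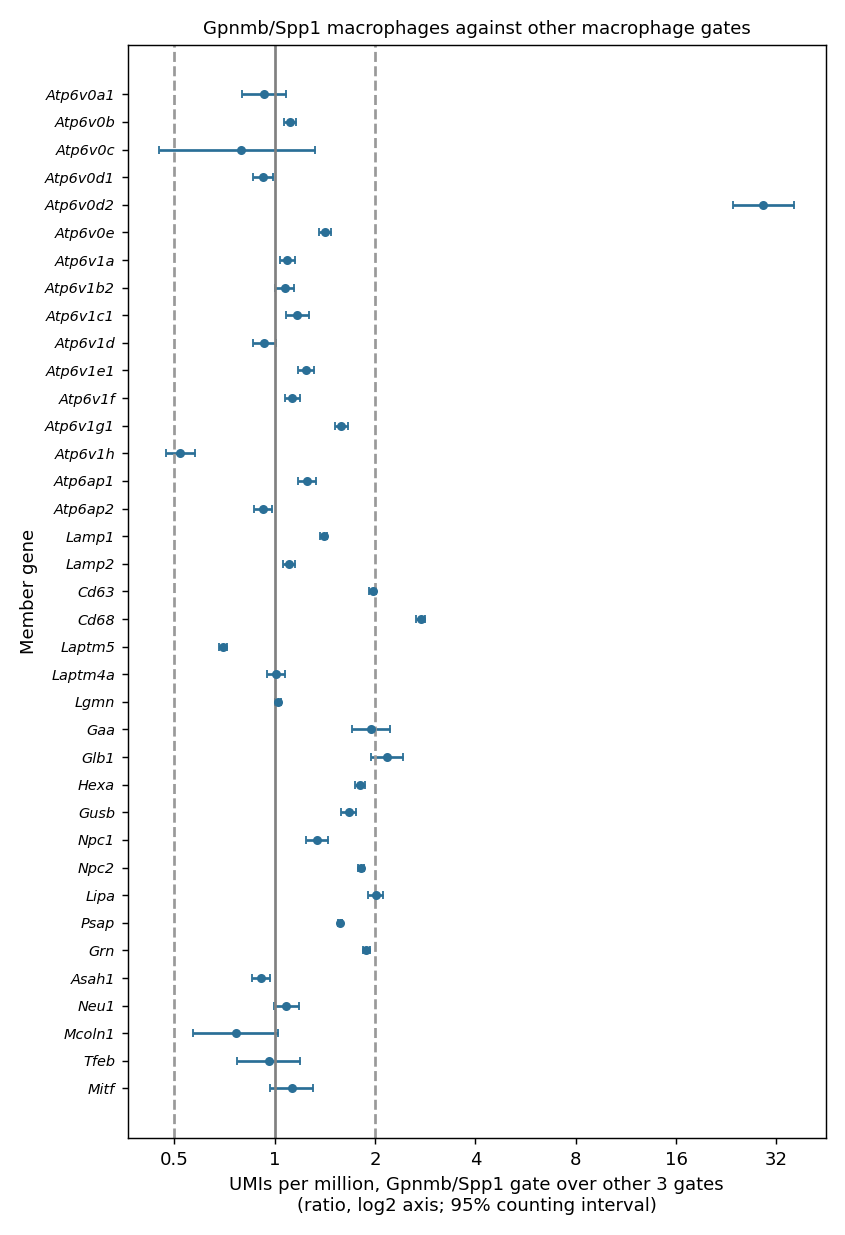
Ratio of the level in the Gpnmb/Spp1 gate to that in the other 3 macrophage gates summed (x, log2 axis) for each of the 37 genes (y), with 95% counting intervals. The solid line marks 1, dashed lines 0.5 and 2. Atp6v0d2 lies at 29.2, Cd68, Glb1 and Lipa between 2.0 and 2.75, and Atp6v1h at 0.52.

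Membrane proteins differed in both directions. Cd68, a heavily glycosylated lysosomal protein of macrophages, was at 1335, 1176, 1253 and 1117 CPM in the 4 runs of the Gpnmb/Spp1 gate. It was between 325.7 and 446.6 CPM in the 6 runs of the Thbs1/Vegfa gate and between 401.6 and 556.4 in those of the Il10 gate, so that the groups of runs did not overlap. Its ratio was 2.75 (2.66 to 2.83). Cd63, a tetraspanin of late endosomes, was at 1923 CPM against 842.7 to 1114 in the other 3 gates. Laptm5, a lysosomal membrane protein of blood cells, went the other way, with 968.6 CPM in the Gpnmb/Spp1 gate and 1445 in the Thbs1/Vegfa gate, a ratio of 0.70 (0.68 to 0.72). In the CD4/CD8-selected matrix it did not separate the gates, with 1216 CPM in the Gpnmb/Spp1, 1210 in the Thbs1/Vegfa and 1173 in the Il10 gate.

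Hydrolases and lipid cofactors were the members that most often led in the Gpnmb/Spp1 gate. Lipa, the lysosomal acid lipase that frees cholesterol from its esters, was at 358.6, 338.2, 430.5 and 360.3 CPM in the 4 runs of the Gpnmb/Spp1 gate, and at 229.4 CPM or less in every run of the Thbs1/Vegfa gate and 211.4 or less in every run of the Il10 gate. Its ratio was 2.01 (1.91 to 2.12). Glb1, the lysosomal beta-galactosidase, was at 117.5, 116.0, 68.1 and 85.6 CPM in these runs, against 49.4 or less in the runs of the same 2 gates, a ratio of 2.17 (1.95 to 2.43). Its gene span overlaps that of Tmppe on the same strand of chromosome 9, so its level is uncertain. Overlap of exons was not examined. Grn, the precursor of granulins, was at 1653 CPM and Psap, the precursor of saposins, at 6258 CPM, with ratios of 1.88 and 1.57. Hexa, a subunit of beta-hexosaminidase, was between 754.9 and 939.7 CPM over the 4 runs, against 354.1 to 421.9 in the Thbs1/Vegfa and 445.2 to 517.9 in the Il10 gate. Gusb, beta-glucuronidase, was between 321.4 and 375.2 CPM, above all runs of both gates (176.9 to 276.4). Gaa was between 54.9 and 67.3 CPM, against 46.6 or less. In the Lyve1/Cd209f gate Grn was at 1609 CPM and Gaa at 43.8, with intervals overlapping those of the Gpnmb/Spp1 gate. In the CD4/CD8-selected matrix Psap was at 5620 CPM in the Gpnmb/Spp1 and 5621 in the Thbs1/Vegfa gate, and Gaa at 52.0 and 52.5. Grn was highest there in the Gpnmb/Spp1 gate, at 1555 CPM against 1437 in the Il10 gate. Asah1, acid ceramidase, and Neu1, a sialidase, had ratios of 0.91 (0.85 to 0.96) and 1.08 (0.99 to 1.18), and their runs overlapped between gates. Npc2, which hands cholesterol to the membrane protein Npc1, had a ratio of 1.81, and Npc1 one of 1.34. Lgmn, a cysteine protease, had one of 1.02 (1.00 to 1.04).

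The regulators did not differ beyond counting error between the Gpnmb/Spp1 gate and the other 3 gates summed. Tfeb, a MiT factor, was at 17.6 CPM in the Gpnmb/Spp1, 17.8 in the Lyve1/Cd209f, 15.2 in the Thbs1/Vegfa and 21.3 in the Il10 gate, a ratio of 0.96 (0.77 to 1.19). Mitf was at 38.0 CPM in both the Gpnmb/Spp1 and the Il10 gate and at 26.0 in the Thbs1/Vegfa gate, a ratio of 1.12 (0.97 to 1.31). Mcoln1 had a ratio of 0.77 (0.57 to 1.02). For all 3 the interval of the ratio includes 1. Against macrophages outside the 4 gates, Mitf was higher in the Gpnmb/Spp1 gate in 4 of 4 runs.

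The Lyve1/Cd209f gate, with 46 cells and no run of at least 20, had the next highest levels. Against the other 3 gates summed, 3 of 37 members were at least 2-fold higher, where 23.1% of all genes were, and 1 was lower, where 7.21% were. The 3 were Mitf at 84.3 CPM (ratio 2.51, 1.86 to 3.33), Atp6v0a1, the membrane-spanning a subunit, at 87.6 (2.35, 1.75 to 3.09) and Mcoln1 at 24.3 on 15 UMIs (2.16, 1.19 to 3.62). The lower member was Atp6v0d2, on 3 UMIs. Lamp1 at 1483 CPM and Lamp2 at 676.4 were higher here than in the Gpnmb/Spp1 gate (1216 and 467.4), as was Lgmn at 2415 against 1770 CPM. The background of 23.1% includes genes with fewer than 3 UMIs in this small gate, whose level was set to that of 3. With such genes not called it was 11.1%, and the counts of members stayed the same. Ordering the 4 gates gene by gene, 12 members were highest in the Gpnmb/Spp1 gate with an interval apart from the next gate, 7 in the Lyve1/Cd209f gate and 1, Laptm5, in the Thbs1/Vegfa gate. For the remaining 17 the intervals of the first 2 gates overlapped. No share over all genes was computed for this ordering, so these counts and those below describe the members only. Whether intervals come apart also depends on the UMIs of a gate, 6265990 in the Gpnmb/Spp1 and 616519 in the Lyve1/Cd209f gate. In the CD4/CD8-selected matrix the Lyve1/Cd209f gate held 7 cells and was left out. Only the Gpnmb/Spp1, Thbs1/Vegfa and Il10 gates were ordered there, and 180 of 202 Gpnmb/Spp1 cells came from 1 run. In this ordering 13 members were highest in the Gpnmb/Spp1 gate with an interval apart from the next, among them Atp6v0d2, Cd68, Glb1 and Lipa. Another 2, Atp6v1h and Neu1, were so in the Il10 gate. Because the gates ordered differ, the 13 is not set against the 12 above.

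In the Thbs1/Vegfa gate, 34 of 37 members had ratios below 1, with a median of 0.76 against 0.97 over all genes. By 2-fold, 0 members were higher (3.13% of all genes) and 1 was lower (7.45% of all genes), again Atp6v0d2. In the Il10 gate the median was 1.07 against 0.96 over all genes, 1 member was higher by 2-fold (4.77% of all genes) and 1 lower (5.66% of all genes). The higher one was Atp6v1h, with a ratio of 2.04 (1.90 to 2.19), and the lower one Atp6v0d2. Since Atp6v0d2 is high in 1 of the gates summed, it is low in each of the other comparisons.

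Among 79 other genes of the pathway, fixed as lists beside the members, 71 could be tested in the Gpnmb/Spp1 gate, and 7 were at least 2-fold higher (7.87% of all genes) and 1 lower (10.4% of all genes), with a median ratio of 1.15. Galns and Naglu, which degrade sulfated glycans, had ratios of 4.93 (4.28 to 5.68) and 3.95 (3.52 to 4.43). Dmxl2, a protein of V-ATPase assembly, was at 141.4 against 30.2 CPM (ratio 4.68, 4.21 to 5.20). Igf2r, the receptor that sorts mannose-6-phosphate enzymes to lysosomes, had a ratio of 3.86 and the sorting receptor Sort1 one of 2.37. The lower gene was Rogdi, another assembly factor, at 11.3 against 25.5 CPM (0.44, 0.34 to 0.57). Of the 7 MiT and autophagy genes and the 11 nutrient sensing genes that were tested, 0 differed by 2-fold. In the Lyve1/Cd209f gate 7 of 71 were higher and 7 lower, where 23.1% and 7.21% of all genes were. In the Thbs1/Vegfa gate 0 were higher and 4 lower (3.13% and 7.45% of all genes), and in the Il10 gate 2 and 5 (4.77% and 5.66% of all genes). Most of these counts are near or below the shares over all genes.

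The macrophages were also ordered by their own Gpnmb count after thinning to 3000 UMIs, a split chosen after values were seen. In CD11c-selected macrophages, Atp6v0d2 was at 4.03 CPM (3.08 to 5.18) in 5043 cells with no Gpnmb UMI, 58.0 (35.4 to 89.5) in 115 cells with 1, 107.3 (76.0 to 147.3) in 118 cells with 2 to 3 and 192.9 (163.0 to 226.7) in 254 cells with 4 or more. Cd68 went from 441.2 to 1329 CPM and Psap from 4210 to 7514 over the same classes. Atp6v1h was at 131.0 CPM in the first class and 74.8 in the last. Mitf was at 28.9 CPM (26.2 to 31.7) in the first and 49.9 (35.3 to 68.4) in the last. In CD4/CD8-selected macrophages Mitf was at 38.4 CPM (29.5 to 49.1) and 64.5 (38.2 to 102.0), with overlapping intervals, and Atp6v1h at 107.9 (92.6 to 125.0) and 82.4 (52.3 to 123.7), also overlapping. Cells of every class had the same number of UMIs, so depth per cell did not differ between the classes.

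**Figure D4:**
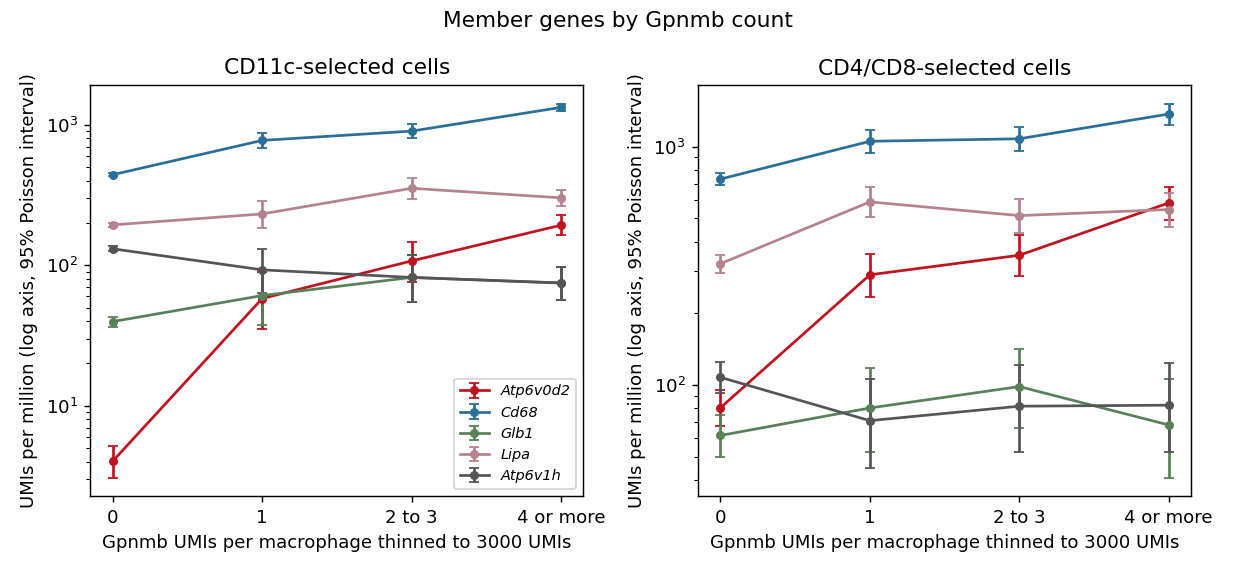
Levels of 5 member genes in UMIs per 1000000 (y, log axis) in macrophages by their Gpnmb UMIs after thinning to 3000 UMIs (x), with 95% Poisson intervals, for CD11c-selected (left) and CD4/CD8-selected cells (right). Atp6v0d2 stands at 4.03 on the far left and 192.9 on the far right of the first panel, and at 80.4 and 580.6 in the second.

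In macrophages carried through the CD4/CD8 selection, Atp6v0d2 was at 241.8 CPM, against 27.8 in all CD11c-selected macrophages. Over the 6 runs it was 7.66, 42.7, 330.3, 63.8, 15.5 and 144.5 CPM. Of these, 4 runs were above the level of the CD11c-selected macrophages. The third run held 479 of 940 macrophages and 180 of 202 Gpnmb/Spp1 cells. Outside the 4 gates, other macrophages of that run were at 232.0 CPM and those of the other 5 runs between 1.39 and 11.0. In the Gpnmb/Spp1 gate over all runs the level was 377.1 CPM, against 67.1 in the Thbs1/Vegfa, 79.6 in the Il10 gate and 70.3 in other macrophages. Cd68 was between 586.1 and 1119 CPM over the 6 runs of macrophages, highest in the third. The part of that run in these levels was not tested beyond these values.

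DCs had lower levels than macrophages in most members. In CD11c-selected cells, 23 of 37 members were at least 2-fold higher in macrophages than in DCs (17.3% of all genes) and 0 lower (9.9% of all genes), with a median ratio of 2.41 against 1.07. Lgmn was at 1719 against 139.5 CPM (ratio 12.3, 11.8 to 12.9) and Mitf at 30.2 against 4.10 (7.37, 5.60 to 9.90). Atp6v0d2 was on 9 UMIs in 872 DCs.

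The DC subsets were compared with each other after values were seen. Between migratory DCs (174 cells) and cDC1 (442 cells), 5 of 35 members tested were at least 2-fold higher (14.4% of all genes) and 9 lower (22.9% of all genes). The members thus differed about as often as all genes, and the largest differences were in single members. Cd63 was at 1147, 1713, 1618, 1052 and 1304 CPM in the 5 runs of migratory DCs with enough cells, and between 12.2 and 25.1 in the 6 runs of cDC1. The groups of runs did not overlap, and over all cells the ratio was 75.1 (62.9 to 90.4). Lamp1 (ratio 8.04) and Lgmn (5.99) were also higher in migratory DCs, as were Atp6v0a1 and Gaa on 55 and 43 UMIs. Psap was at 5658 CPM in cDC1 and 962.9 in migratory DCs (ratio 0.17), with 4342 to 6640 over the runs of cDC1 and 442.2 to 1224 over those of migratory DCs. Cd68, Grn, Hexa, Glb1, Laptm5, Gusb, Asah1 and Lipa were lower by 2-fold too. For cDC2 (234 cells), Psap was at 2075 and Cd63 at 42.9 CPM. Of the 79 other pathway genes, 66 could be tested, with 14 higher (14.4% of all genes) and 25 lower (22.9% of all genes) in migratory DCs. Both counts were above the shares over all genes. Among the 27 other lysosomal enzymes, 6 were higher and 16 lower, with a median ratio of 0.42.

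**Figure D5:**
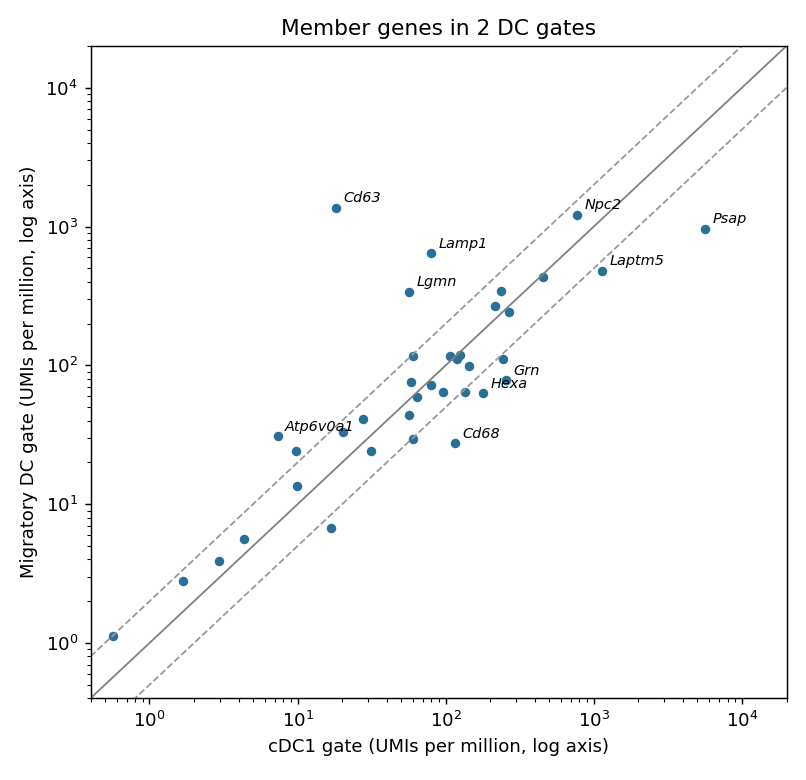
Levels of the member genes in cDC1 (x) and migratory DCs (y), in UMIs per 1000000 on log axes, CD11c-selected cells. The solid line marks equal levels and dashed lines a 2-fold difference. Cd63, Lamp1 and Lgmn lie above the upper dashed line, and Psap, Cd68, Grn and Hexa below the lower.

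Neutrophils (121 cells, 3 runs with enough cells) differed from macrophages less in the proton pump than in the members as a whole. The 16 V-ATPase genes took 3611 CPM in neutrophils and 3101 in macrophages, while all 37 members took 9150 and 17888. By 2-fold, 12 members were higher in macrophages (9.16% of all genes) and 1 lower (43.2% of all genes). With genes under 3 UMIs in neutrophils not called lower in macrophages, the last background was 15.4%. The 12 were Atp6v0d2, 3 membrane proteins and 8 hydrolases, cofactors or lipid carriers, among them Lgmn (ratio 14.3), Npc2 (6.91) and Psap (6.37). Mcoln1 was lower in macrophages on 8 UMIs in neutrophils, with an interval of 0.25 to 1.14. Atp6v1g1 was at 630.7 CPM in neutrophils and 339.5 in macrophages, a ratio of 0.54 (0.47 to 0.62). Macrophage genes were present in this gate, with Apoe at 7.46%, Csf1r at 25.3%, Ms4a7 at 1.85% and Mrc1 at 0.55% of their macrophage level. Lgmn (6.98%), Npc2 (14.5%), Psap (15.7%) and Cd68 (18.2%) lay within this range, and 10 members in all reached it with their intervals. Csf1r alone set the upper end, and the other macrophage genes stood at 7.46% or less. Some of the 10 reached the range only through wide intervals, such as Atp6v0c at 60.2% on 1 UMI. The 10 are not read as expressed in neutrophils, but this measure cannot show that they are not expressed. Of the V-ATPase genes, Atp6v0c and Atp6v0d2 were among the 10.

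Tumor cells had another profile. Against them 23 members were at least 2-fold higher in macrophages (16.7% of all genes) and 0 lower (28.6% of all genes). Laptm5 was at 10.6 CPM and Cd68 at 11.1 CPM in tumor cells. Atp6v0d2 had 0 UMIs there, which gives a ratio of 64.8 for macrophages with the floor of 3 UMIs. The exact interval of its level in tumor cells reaches 1.90% of the macrophage level. Atp6v1e1 was at 306.3 CPM in tumor cells and 198.8 in macrophages, Laptm4a at 322.6 and 216.4, and Gaa, acid alpha-glucosidase, at 59.9 and 37.6. In the CD4/CD8-selected matrix, Atp6v1e1 was at 338.6 CPM in tumor cells and 281.2 in macrophages, and Laptm4a at 421.2 and 312.3. Gaa had the opposite order there, with 43.3 CPM in tumor cells and 52.6 in macrophages. Cd63 was between 519.9 and 653.0 CPM in 4 runs of CD11c-selected tumor cells. Relative to macrophages, Cd68 in CD11c-selected tumor cells stood at 1.96% and Laptm5 at 0.82%, while 4 macrophage genes that tumor cells should lack stood at 1.60% (Apoe), 0.79% (Csf1r), 0.37% (Mrc1) and 0.23% (Ms4a7). Laptm5 lay within this range and is read as background. Cd68 lay above all 4 values, with an interval (1.55% to 2.45%) that reaches the highest of them. In CD4/CD8-selected tumor cells Cd68 was at 0.81% (0.62% to 1.03%), above the range of the 4 genes (0.03% to 0.61%), and Laptm5 at 0.35% lay within it.

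T cells had the lowest sum, 2911 CPM in the CD4/CD8-selected matrix against 22731 in its macrophages. There 34 of 37 members were at least 2-fold higher in macrophages (23.9% of all genes) and 0 lower (26.7% of all genes). The other 3 were Laptm5 (873.5 CPM in T cells, ratio 1.36), Atp6v1f (233.0, 1.51) and Atp6v1h (47.9, 1.71). Among the 71 CD11c-selected T cells, 28 members were higher in macrophages (10.5% of all genes) and 0 lower (38.1% of all genes). With genes under 3 UMIs in T cells not called lower in macrophages, the last share was 15.0%.

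Free RNA of macrophages can give UMIs in T cells, and 4 macrophage genes served as a measure of it. In CD4/CD8-selected T cells, Apoe, Csf1r, Ms4a7 and Mrc1 were at 0.16% to 0.23% of their macrophage level. Lgmn was at 0.23% (95% CI, 0.21% to 0.25%), an interval that reaches into this range, and is read as background in T cells. The intervals of the other 36 members lay above the range. Atp6v0d2 was the nearest, at 0.30% (0.24% to 0.38%), followed by Cd63 at 0.51%, and the highest was Laptm5 at 73.7%. Of the 74 Atp6v0d2 UMIs in T cells, 64 were from the third run, where the gene stood at 1.45% and the 4 genes together at 1.24% of the macrophage level. In the fourth run, 8 UMIs put it at 1.01%, where the 4 genes stood at 0.12%. At so small a distance from the measure, and with most UMIs from 1 run, Atp6v0d2 is not read as expressed in T cells. In CD11c-selected T cells the 4 genes ranged from 0.55% to 15.5%. The intervals of 19 members began at or below the upper end, though some of their values lay above it, so that these cells were not read further.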

How the data were processed

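Single-cell RNA was measured in 12 samples. Raw UMI counts, not normalized, were deposited by the authors in a matrix for each selection, which pools 6 samples. The submitters' processing notes name Cell Ranger 3.0.2 and mm10. Barcodes under 200 detected genes were left out, and doublets were not called (an alternative left out the deepest cells of each gate). UMIs were summed per gate and divided by the total (CPM). Intervals are exact (Poisson for levels, conditional binomial for ratios, Clopper-Pearson for shares) and cover counting error only. Ratios used genes with at least 20 UMIs in both gates together, and sums under 3 UMIs were set to 3, as laid down at the outset. Because this floor calls many low genes in small gates, a one-sided form was added after the shares over all genes were seen. In it, no gene with under 3 UMIs in a gate is called higher in that gate. A gene under 3 UMIs only in the gate where it is lower is still called. The comparison of DC gates, the free RNA measure in neutrophils, the Gpnmb classes and the count of runs were also added after values were seen. Members and lists were chosen with earlier results of these data known. All members are named, and of the other pathway genes up to 5 each way with the largest fold. A promoter search used RefSeq windows, and positions are from GENCODE M21. Ratios were tested on simulated data. Python 3.11.15, numpy 2.4.6, scipy 1.17.1, pandas and matplotlib were used. A macrophage marker that was among those chosen at the outset, also for the measure of free RNA, and a comparison within T cells are not reported here.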

Additional observations from a re-analysis of the deposited data

How the results depend on the processing

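No paired analysis was possible because no cell could be assigned to a sample. Over 21 alternatives, 337 of 390 values kept to the stated limits (counts within 1.5 times, values within their interval). A reversal could be recorded only for the summed level and the Atp6v0d2 ratio of the Gpnmb/Spp1 gate, each under 15 alternatives. Of these values 0 reversed. The summed level of the members in the Gpnmb/Spp1 gate over the other 3 gates was 1.36 with markers of at least 1 UMI, 1.45 with at least 4, 1.44 in cells of 5000 to 20000 UMIs, 1.39 as a mean over cells, 1.31 with cells of several gates kept and 1.41 when divided by the median ratio, and 1.38 to 1.48 leaving out 1 barcode run each. The Atp6v0d2 ratio was 4.55 with cells of several gates kept. The count of members higher in the Gpnmb/Spp1 gate was then 2, and it was 12 at a fold of 1.5 and 1 at a fold of 3. In the Lyve1/Cd209f gate it was 9 and 0 at these folds, and 3 to 5 leaving out 1 run each, with 5 without run 3. The 1 member higher in the Il10 gate, Atp6v1h, was lost (0 members) with markers of at least 1 UMI, with the stricter cell filter, in cells of 5000 to 20000 UMIs, with cells of several gates kept, at a fold of 3 and without run 1 (0 to 1 over runs). At a fold of 3, members higher in macrophages were 13 against DCs, 7 against neutrophils and 15 against tumor cells, and against neutrophils 19 with ratios divided by the median. Counts of members lower moved as well. In the Thbs1/Vegfa gate the 1 became 12 at a fold of 1.5, 3 with markers of at least 4 UMIs and 0 with cells of several gates kept. In macrophages against neutrophils the 1 became 5 at a fold of 1.5, 0 at a fold of 3, as a mean over cells and when divided by the median, and 0 to 3 leaving out 1 run each. The one-sided floor left every count of members as it was and moved the share of all genes called from 23.1% to 11.1% (higher in the Lyve1/Cd209f gate), from 43.2% to 15.4% (lower than neutrophils) and from 38.1% to 15.0% (lower than T cells). The neutrophil comparison was not available among cells of 5000 to 20000 UMIs. The Lyve1/Cd209f gate rests on 46 cells.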
